A study of Homo sapiens with 12 samples.

Results

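NELF, the negative elongation factor, is the complex of NELFA, NELFB, NELFCD and NELFE, and it was followed here as 4 transcripts of the 58051 genes in the count table of MDA-MB-231 cells treated with siRNA. The members were the rows whose gene symbol was NELFA, NELFB, NELFCD or NELFE, and each matched 1 row of the counts and 1 row of the TPM values. MDA-MB-231 cells are an established breast cancer line without hormone receptors. Every library came from these cells after transfection with an ON-TARGETplus siRNA pool or pools: siControl received the non-targeting pool, siNELFA the NELFA pool, siYAP the YAP1 pool, and siNELFA+siYAP the NELFA and YAP1 pools together, with 3 libraries per group and 12 in all. The siRNA was given at 50 to 100 nM. The RNA for sequencing was collected 72 hours after transfection according to the sequencing methods, while the labels also name 48 hours and tie no library to either time. The methods call the libraries of a group independent biological replicates. The labels do not say so, and the library names of the double knockdown all carry the number 1 followed by a running suffix. Whether its spread is that of separate cultures was not tested, which bears on the errors and p-values of its comparisons.

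NELF binds RNA polymerase II shortly after initiation and, together with the DSIF factor (SUPT4H1 and SUPT5H), holds it near the promoter. The kinase P-TEFb (CDK9 with cyclin T) phosphorylates NELF, DSIF and the polymerase, NELF leaves, and elongation proceeds. NELFA contacts the polymerase, NELFB and NELFCD form the core that joins the subunits, and NELFE carries an RNA recognition motif. In many systems the protein subunits depend on each other for stability, a property of the proteins that transcript counts do not measure.

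The libraries held 9608145 to 18803104 counts each. Vimentin (VIM), CD44, EGFR, AXL and KRT18 were at 139 to 1870 CPM (counts scaled to library size, as edgeR gives them) in every library, whereas the hormone receptor genes ESR1 and PGR did not exceed 0.433 CPM, PTPRC did not exceed 0.385 CPM and CD3E had no count. Of the markers listed as low or absent in this line, ERBB2 was at 45.7 to 80.5 CPM, CDH1 at 0 to 47 CPM, EPCAM at 4.66 to 18.3 CPM, GATA3 at 3.98 to 10.7 CPM and the endothelial marker PECAM1 at 1.76 to 8.88 CPM. Libraries numbered 1 stood apart in siControl, siNELFA and siYAP, where the median gene deviated from its group mean by 0.315, 0.269 and 0.291 on the log2 scale; the other libraries of these groups deviated by 0.154 to 0.191, and those of the double knockdown by 0.0548 to 0.0608. Tests of the NELF subunits that rest on the libraries numbered 1 are therefore also given without them. For other single genes and for correlations this was not done.

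The 4 genes lie on 4 chromosomes, and their promoters are shown because the 4 subunits, although parts of 1 complex, have start regions of different composition. Each sequence is the RefSeq promoter of build GRCh38.p14, from 250 bases before to 50 bases after the annotated start, written 5′ to 3′ on the gene's strand. Capitals mark matches, on either strand, to the TATA box (letters TATAA), the CCAAT box (named by its letters), the GC box (letters GGGCGG), a core bound by ETS factors (letters CCGGAA) and a core bound by the TEAD factors through which YAP acts (letters GGAATG); neighbouring or overlapping matches run together.
NELFA, chr4:2008925-2009224, minus strand: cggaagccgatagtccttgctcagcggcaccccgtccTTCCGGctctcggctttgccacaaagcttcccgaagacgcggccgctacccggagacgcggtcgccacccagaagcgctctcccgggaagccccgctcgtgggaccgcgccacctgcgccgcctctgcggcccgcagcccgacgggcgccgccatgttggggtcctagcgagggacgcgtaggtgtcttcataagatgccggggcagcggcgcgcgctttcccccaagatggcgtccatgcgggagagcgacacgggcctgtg
NELFB, chr9:137255077-137255376, plus strand: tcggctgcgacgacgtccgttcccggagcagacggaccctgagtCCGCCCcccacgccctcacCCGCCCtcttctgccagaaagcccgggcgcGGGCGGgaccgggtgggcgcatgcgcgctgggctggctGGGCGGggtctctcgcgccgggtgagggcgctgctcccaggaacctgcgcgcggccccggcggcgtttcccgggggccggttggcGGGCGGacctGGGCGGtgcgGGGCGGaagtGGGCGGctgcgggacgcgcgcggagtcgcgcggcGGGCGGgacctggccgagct
NELFCD, chr20:58981006-58981305, plus strand: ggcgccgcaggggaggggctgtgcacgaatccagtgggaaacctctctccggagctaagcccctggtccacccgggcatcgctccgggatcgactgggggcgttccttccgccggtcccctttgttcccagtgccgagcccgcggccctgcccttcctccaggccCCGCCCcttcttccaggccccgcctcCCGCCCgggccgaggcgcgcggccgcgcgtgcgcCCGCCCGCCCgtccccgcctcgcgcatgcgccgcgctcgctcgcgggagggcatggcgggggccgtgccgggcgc
NELFE, chr6:31958922-31959221, minus strand: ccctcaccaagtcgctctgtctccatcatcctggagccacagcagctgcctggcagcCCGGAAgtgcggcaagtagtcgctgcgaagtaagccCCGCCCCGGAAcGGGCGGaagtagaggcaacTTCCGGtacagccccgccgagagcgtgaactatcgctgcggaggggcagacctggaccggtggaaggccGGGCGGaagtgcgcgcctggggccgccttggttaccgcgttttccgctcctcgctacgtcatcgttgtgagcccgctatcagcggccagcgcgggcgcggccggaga

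GC boxes were found 9 times at NELFB, 4 times at NELFCD, 3 times at NELFE and 0 times at NELFA. The ETS core was found 3 times at NELFE, 1 time at NELFA and 0 times at the others. None of the 4 windows held the TATA box, the CCAAT box or the TEAD core. Among all 35116 promoters of the table, 45.0% held the GC box, 17.3% the ETS core, 20.4% the TATA box, 34.6% the CCAAT box and 14.0% the TEAD core. All 4 windows were rich in G and C, from 67.7% at NELFE to 79.3% at NELFB against a median of 58.7%, and held 34 to 48 CpG against a median of 14. These are matches of letters in a window and say nothing of binding.

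In GENCODE version 44 on GRCh38, NELFA (ENSG00000185049) spans chr4:1982717-2041903 on the minus strand and its MANE Select transcript, the agreed reference transcript, has 11 exons and 2198 bases. The span reaches 32929 bases further upstream than the RefSeq start. NELFB (ENSG00000188986) spans chr9:137255327-137273542 on the plus strand, with 13 exons and 2540 bases. NELFCD (ENSG00000101158) spans chr20:58981208-58995133 on the plus strand, with 15 exons and 2237 bases. NELFE (ENSG00000204356) spans chr6:31952087-31959038 on the minus strand, with 11 exons and 1445 bases. Single-transcript annotation was found for NELFB only; the other members have 14 or 15 annotated transcripts, so their length, and any level per length, depends on the transcript chosen.

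NELFA, the subunit that the siNELFA pool targets, was followed first because it checks the labels. Its normalized counts (counts divided by TMM-scaled library size, and brought to the geometric mean library) in siControl replicates 1, 2 and 3 were 369.9, 400.9 and 407.1. In siNELFA they were 145.4, 132.2 and 103.8. In siYAP they were 492.7, 368.6 and 323.9. In the double knockdown they were 119.6, 98.2 and 92.6. The 6 libraries that received the NELFA pool lay between 92.6 and 145.4 and the 6 that did not lay between 323.9 and 492.7, so the labels of the pool and the level of its target did not overlap in any library. In raw counts this meant 94 to 157 reads against 234 to 539.

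Relative to the siControl library of the same number, NELFA was at 39.3%, 33.0% and 25.5% under siNELFA and at 32.3%, 24.5% and 22.8% with both pools. Across the groups, the order of NELFA levels was siYAP (395.1 ± 87.5, SD, n = 3), siControl (392.6 ± 19.9), siNELFA (127.1 ± 21.3) and siNELFA+siYAP (103.5 ± 14.2). The first 2 groups in this order did not differ beyond their spread, nor did the last 2, whose libraries overlapped (103.8 in siNELFA replicate 3 against 119.6 in double knockdown replicate 1).

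The comparison with the NELFA pool present or absent gave 1 effect of that pool over all libraries. It takes this effect as equal with and without the YAP pool, which only the interaction asks about. In an additive fit over all 12 libraries with a term for each pool (edgeR's quasi-likelihood test, adjusted over 18525 genes), NELFA fell to 29.1% (95% interval 23.4 to 36.2), a log2 fold change of -1.78 (SE 0.15, adjusted p = 0.000103). This fit called 2.16% of all genes tested at an adjusted p under 0.05. It counts the double knockdown libraries as separate cultures, which was not tested and bears on its intervals and p-values. The extra effect of the NELFA pool when the YAP pool was also present, the interaction, was -0.30 on the log2 scale for NELFA, with a 95% interval from -0.92 to 0.32 (adjusted p = 1.0). Of 18525 genes, 0 (0.0%) were called for the interaction by edgeR, with 326 at an unadjusted p under 0.05. Double knockdown against siNELFA gave -0.30 for NELFA (95% interval -0.81 to 0.21, adjusted p = 0.764), in a comparison that called 0.00573% of genes.

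The single comparisons called few genes, which bears on how the adjusted p of NELFA reads. In siNELFA against siControl, NELFA stood at -1.63 (SE 0.21, 95% interval -2.12 to -1.13), and was the gene of rank 4 by p among 17727, yet its adjusted p was 0.381 in edgeR, where 0.00564% of genes were called. With the replicate number as a block, the same fall (-1.64) had an adjusted p of 0.000385 and 5.21% of genes were called. Deviations of same-numbered libraries in siControl, siNELFA and siYAP ran together, and those of the double knockdown did not. The block can therefore be a pairing for the former only. Whether the numbers pair more than the libraries numbered 1, which stood apart in those groups, was not tested. In the double knockdown against siControl, NELFA fell by 1.94 on the log2 scale (SE 0.16, adjusted p = 0.0199), in a comparison that called 0.428% of genes. There the replicate block, whose numbers pair nothing in the double knockdown, gave an adjusted p of 0.151 for NELFA and 0.0114% of genes called. Against siYAP, the double knockdown also stood 1.94 lower (log2 fold change -1.94, SE 0.22, adjusted p = 0.0583; 0.035% called).

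YAP knockdown alone left NELFA at 100.1% of siControl in the edgeR fit (95% interval 70.4 to 142, adjusted p = 1.0), in a comparison that called 0.00578% of genes. The siYAP libraries ranged from 323.9 to 492.7, and the interval is wide, so it does not show that the level was the same. YAP1 itself, the target of the other pool, fell by 2.67 on the log2 scale in siYAP (adjusted p = 0.0162) and stood at -0.04 in siNELFA (SE 0.16, adjusted p = 1.0).

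The other 3 subunits give the response of the complex to loss of NELFA, and none passed the test in any of the 7 comparisons in edgeR, with or without the block. These comparisons called 0.0% to 2.16% of all genes without the block and 0.0% to 7.12% with it, so most genes did not pass either. In the fit over all 12 libraries, NELFCD was at 95.1% with the NELFA pool present (95% interval 85.1 to 106, adjusted p = 0.695). NELFE was at 100.8% (87.4 to 116, adjusted p = 0.973). NELFB was at 97.2% (72.6 to 130, adjusted p = 0.950), and its interval is the widest of the 3. The double knockdown against siYAP, which leaves out the siControl libraries, gave a narrower interval for NELFB, at 89.0% (73.5 to 107.7, adjusted p = 0.515). The double knockdown libraries lay close together, and whether they are separate cultures was not tested, which bears on the width of this interval. The NELFB interval over all libraries leaves room for changes in either direction that lie outside those of NELFCD and NELFE.

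**Figure D1:**
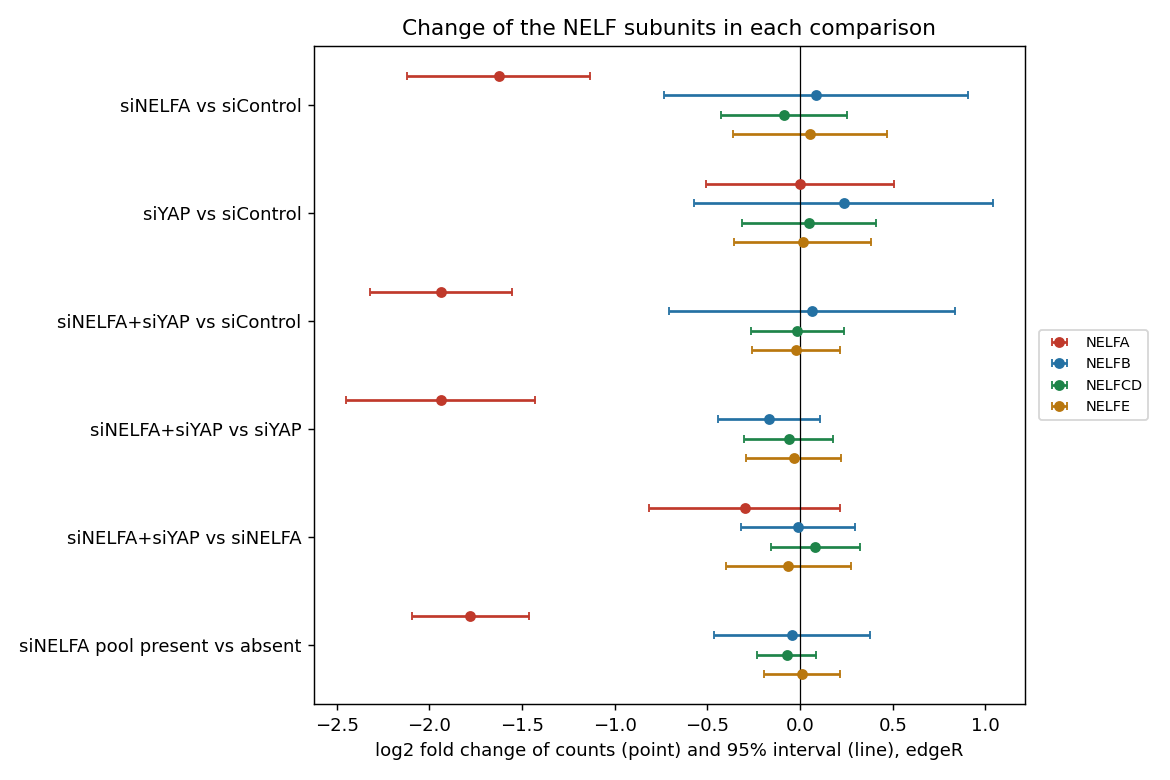
Log2 fold change of each NELF subunit (points) with its 95% interval (lines) in 6 comparisons, from edgeR on counts. NELFA lies between -1.94 and -1.63 wherever the NELFA pool is set against its absence, while the intervals of NELFB, NELFCD and NELFE include 0 in every comparison and are widest for NELFB against siControl.

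NELFCD, the gene of the core subunits NELF-C and NELF-D, which are translated from different start codons of 1 transcript, had normalized counts of 1407, 1541 and 1398 in siControl. The siNELFA libraries had 1280, 1432 and 1376, the siYAP libraries 1470, 1465 and 1570, and those of the double knockdown 1448, 1375 and 1511. All 4 groups overlapped, and the whole range over the 12 libraries was 1280 to 1570. The coefficient of variation within groups was 3.94% to 5.64%, the most even of the 4 subunits across groups. In siNELFA against siControl the log2 fold change was -0.09 (95% interval -0.43 to 0.26), and in the double knockdown it was -0.02 (-0.27 to 0.23). Neither passed the test.

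NELFE, the RNA-binding subunit, had normalized counts of 1312, 1288 and 1310 in siControl, the closest triplet of any member (coefficient of variation 1.02%). The siNELFA libraries had 1234, 1641 and 1178, the siYAP libraries 1362, 1394 and 1207, and the double knockdown 1264, 1329 and 1289. The highest value over all 12 libraries was siNELFA replicate 2, and the lowest, 1178, was in the same group. The log2 fold change was 0.05 in siNELFA (95% interval -0.36 to 0.47) and -0.02 in the double knockdown (-0.26 to 0.21). Without siNELFA replicate 2 the siNELFA value turned to -0.11 (adjusted p = 0.999). Neither direction passed the test.

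NELFB, the other core subunit and also known as COBRA1, had normalized counts of 512.2, 1334 and 1325 in siControl. The first of these is the lowest NELFB value of the series, and the other 2 are the highest. In siNELFA NELFB had 951.2, 1215 and 1194, in siYAP 1123, 1309 and 1307, and in the double knockdown 1025, 1163 and 1150. Replicate 1 was the lowest library in each of the 4 groups, and the remaining 8 libraries ran from 1150 to 1334. The coefficient of variation in siControl was 44.6%, against 6.85% to 13.1% in the other groups.

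How NELFB compares with control therefore turned on siControl replicate 1. Relative to the siControl library of the same number, NELFB was at 185.7% in siNELFA replicate 1, at 219.3% in siYAP replicate 1 and at 200.1% in double knockdown replicate 1. For numbers 2 and 3 the corresponding values were 91.1% and 90.1% under siNELFA, 98.1% and 98.6% under siYAP, and 87.2% and 86.8% under the double knockdown. In edgeR the log2 fold change of NELFB was 0.09 in siNELFA (95% interval -0.74 to 0.91), 0.23 in siYAP (-0.57 to 1.04) and 0.06 in the double knockdown (-0.71 to 0.83). Without replicate 1 of every group it became -0.13 in siNELFA (adjusted p = 0.628), -0.02 in siYAP (adjusted p = 0.996) and -0.20 in the double knockdown (adjusted p = 0.116). Without siControl replicate 1 alone, the double knockdown stood at -0.26 with an adjusted p of 0.0217, which passes the test, in a fit that called 24.4% of all genes. The direction of NELFB against siControl thus turned with 1 library, and over the 12-library fit without replicate 1 of every group it was -0.16 (adjusted p = 0.0902).

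Base composition moved with this library. In siControl replicate 1, the deviation of a gene from its group mean and the GC content of its longest coding transcript had a correlation of -0.366 across 11458 genes, which share that library and are no independent replicates; in siControl replicates 2 and 3 the values were 0.318 and 0.337, and in the other 9 libraries between -0.154 and 0.143. Deviations from a group mean balance each other, so the values of siControl replicates 2 and 3 are in part set by that of replicate 1. The NELFB transcript was at 63.4% GC, higher than or equal to 93.9% of these genes, followed by NELFA at 60.8% (88.1%), NELFE at 56.3% (74.5%) and NELFCD at 52.7% (64.0%). NELFA in siControl replicate 1 lay 0.08 below its group mean on the log2 scale, against 0.92 for NELFB. siControl replicate 1 was also the shallowest library. The part of base composition or depth in the low NELFB value was not tested.

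Levels of different subunits can be set side by side only per length. Per kb of the MANE Select transcript, siControl had 902.0 ± 9.22 normalized counts for NELFE, 647.6 ± 35.8 for NELFCD, 416.2 ± 185.8 for NELFB and 178.6 ± 9.07 for NELFA (SD, n = 3). The deposited TPM values, which the authors' software assigned by transcript, gave the same order, at 88.0 ± 6.48, 68.9 ± 7.18, 34.7 ± 15.4 and 15.8 ± 3.82. Per kb of the union of all annotated exons, which is longer than the MANE Select transcript for NELFCD, NELFA and NELFE and the same for NELFB, NELFE was at 492.4 ± 5.03, NELFB at 416.2 ± 185.8, NELFCD at 230.0 ± 12.7 and NELFA at 77.6 ± 3.94. NELFE and NELFB did not differ beyond their spread on this last scale, and the places of NELFB and NELFCD changed with the length used. NELFA had the lowest group mean of the 4 subunits in every group on each of these scales, although in siYAP replicate 2 its TPM of 67.8 was above those of NELFCD (57.4) and NELFB (38.8).

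NELFA made up 6.47% ± 0.779 of the summed counts per kb of exon union of the 4 subunits in siControl, 5.99% ± 1.38 in siYAP, 2.13% ± 0.482 in siNELFA and 1.75% ± 0.298 in the double knockdown (SD, n = 3). The 6 libraries with the NELFA pool averaged 1.94% and the 6 without it 6.23%, a difference of -4.29 percentage points (two-sided exact permutation test, n = 6 against 6, p = 0.00217, the smallest this design allows; 0.0346 after Benjamini-Hochberg adjustment over 16 comparisons). For single groups of 3 against 3 the smallest possible exact p is 0.1, and both siNELFA and the double knockdown reached it against siControl. These exact tests take the libraries as independent and unpaired. Same-numbered siControl, siNELFA and siYAP libraries ran together, however, and whether the double knockdown libraries are separate cultures was not tested. With the MANE Select lengths the share was 8.36% ± 0.433 in siControl and 2.86% ± 0.602 in siNELFA. Since shares sum to 100%, the other subunits' shares rose by arithmetic when NELFA fell.

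**Figure D2:**
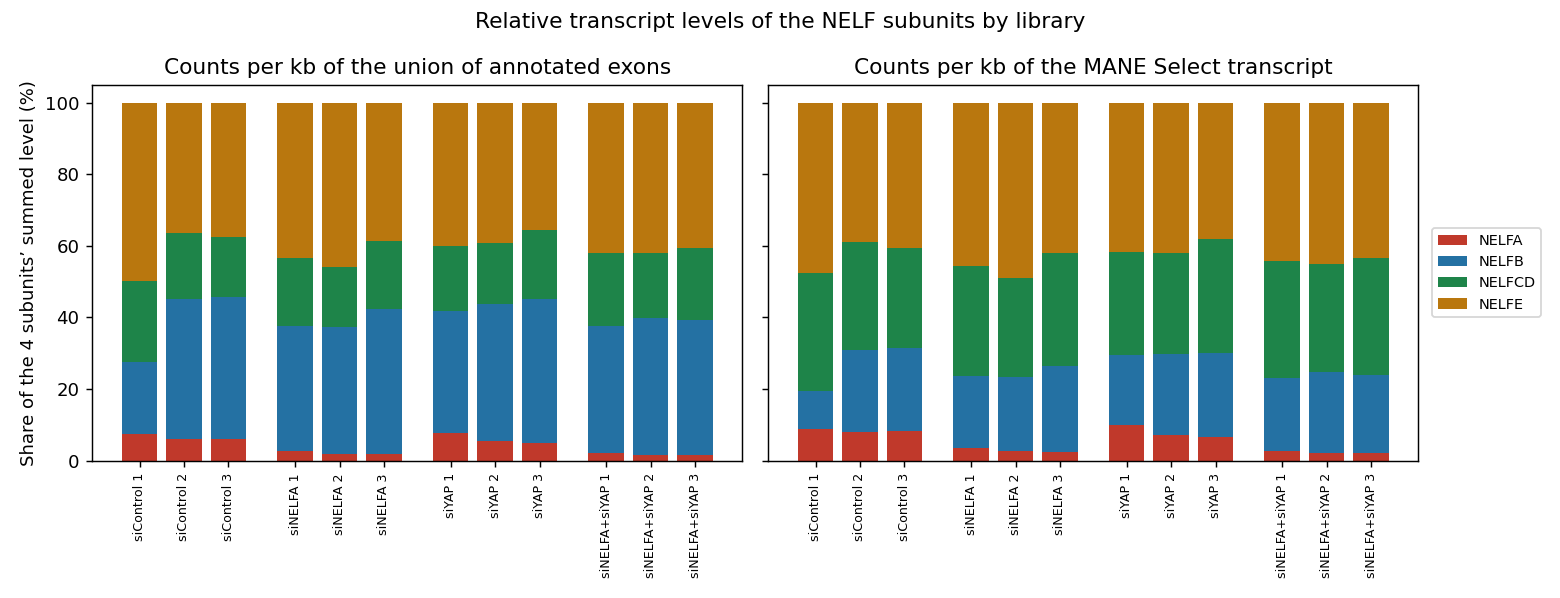
Share of each subunit in the summed level of the 4 NELF subunits in each library (stacked bars, percent), with counts per kb of the union of annotated exons on the left and of the MANE Select transcript on the right. The NELFA share averages 1.94% with the NELFA pool and 6.23% without it on the left scale; the NELFB share in siControl replicate 1 is 20.3%, and the NELFCD share is larger on the right.

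TPM and counts gave different pictures of NELFA in some libraries. In siYAP replicate 2 NELFA had a deposited TPM of 67.8, while the other siYAP libraries had 20.8 and 12.7 and the siControl libraries 13.2, 20.2 and 14.1. Its count in the same library, 368.6 after normalization, was between those of the other 2 siYAP libraries. Relative to the gene's usual ratio of TPM to CPM, the TPM of that library was 4.96-fold higher, and 1.73% of 12859 genes departed as far in that library. In the double knockdown, TPM was 2.36 to 3.35 against 5.02 to 6.24 in siNELFA, without overlap, whereas the counts overlapped. The corresponding ratio was 0.545 to 0.893 of the usual one in the double knockdown and 1.05 to 1.35 in siNELFA. On log2(TPM + 1), limma gave -0.80 for NELFA in the double knockdown against siNELFA, and on log2(TPM + 0.1) it gave -0.99, neither of which passed the test. In siYAP against siControl, where counts gave 0.00, limma gave 0.72 and 0.75 on these scales (adjusted p = 1.0 for both). For the NELFA interaction, -0.30 on counts, it gave -1.52 (unadjusted p = 0.0382, adjusted p = 0.989) and -1.73 (unadjusted p = 0.0252, adjusted p = 0.988). For NELFB, which has 1 annotated transcript, TPM followed counts in all 12 libraries within ratios of 0.979 to 1.03.

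**Figure D3:**
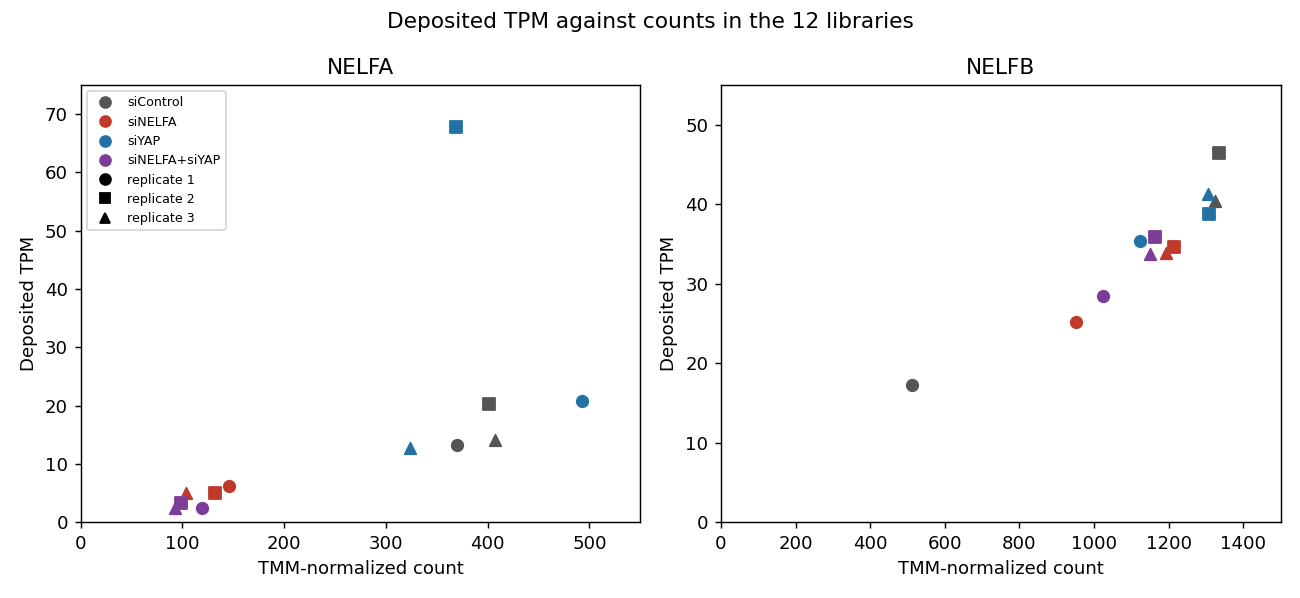
Deposited TPM against normalized count in the 12 libraries for NELFA (left) and NELFB (right), coloured by siRNA group and shaped by replicate number. NELFA in siYAP replicate 2 has a TPM of 67.8 at a count of 368.6, and the NELFB points follow 1 line.

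Some reads of the members can be shared with neighbouring genes. CTSZ, the cathepsin Z gene, overlaps NELFCD by 9448 bases of annotated span on the opposite strand, and had 1956 to 3671 raw counts. The libraries were made with dUTP and so keep the strand, but whether the counting used it is not given in the sources used here; without it, reads in shared exons could not be told apart. At the end of NELFE, the complement gene CFB ends at the adjacent base on the opposite strand, and at its start the exosome helicase gene SKIV2L begins 77 bases away in the other direction. The gene listed as XXbac-BPG116M5.17 overlaps CFB and ends 38 bases from NELFE. On chromosome 4, the histone methyltransferase gene WHSC1 ends 509 bases from NELFA, and C4orf48 starts 91 bases beyond the upstream end of the NELFA span, with 4 to 42 counts.

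NELFE did not follow CFB. Normalized counts of CFB were 9856 in siControl replicate 1, 10570 in siNELFA replicate 1 and 10930 in siYAP replicate 1, but 632.4 to 964.7 in replicates 2 and 3 of these groups and 1017 to 1151 in the double knockdown, its replicate 1 included. NELFE in the same replicates 1 was at 1312, 1234 and 1362. CFB and XXbac-BPG116M5.17 share exons, so their counts (602.2 to 10540 for the latter) are not 2 measurements. SKIV2L was at 2095 in siNELFA replicate 1, at 2140 in siYAP replicate 1 and at 1268 to 1582 in the other 10 libraries. None of these neighbours was called in any of the comparisons, which called 0.0% to 2.16% of all genes without the block. WHSC1 stood at -0.52 in the double knockdown (SE 0.13, adjusted p = 0.109).

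The wider pausing machinery was read from a list of 31 genes outside NELF, all of which were tested: DSIF, P-TEFb, the 7SK particle that holds P-TEFb inactive, the super elongation complex, the PAF1 complex with SPT6, the cleavage-stimulating factors TFIIS, the cap-binding complex and polymerase subunits. In siNELFA against siControl none of the 31 was called, beside 0.00564% of all genes. Of the list, 18 lay above 0 and 13 below, and the median log2 fold change was 0.05 against 0.00 for all genes. With the replicate block, MLLT1 at -0.80 (adjusted p = 0.0144) and TCEA1 at -0.43 (adjusted p = 0.0405) were called there, beside the 5.21% of all genes that this fit called. In siYAP none was called (median -0.12), beside 0.00578% of all genes. In the double knockdown none was called (median -0.01 against -0.03 for all genes), beside 0.428% of all genes. With the NELFA pool present against absent, 0 of the 31 were called higher and 1 lower, with a median of 0.04, beside 2.16% of all genes called in either direction.

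The gene called with the pool present was MLLT1, which encodes ENL, a chromatin-reading subunit of the super elongation complex. It had normalized counts of 611.7, 1112 and 1109 in siControl and of 943.2, 953.3 and 1019 in siYAP. With the NELFA pool it had 498.0, 640.9 and 462.4 when given alone, and 413.0, 425.1 and 493.7 when given with the YAP pool. The libraries with and without the NELFA pool overlapped only through siControl replicate 1, the library in which NELFB was also low. With the pool present MLLT1 stood at -0.98 (SE 0.15, adjusted p = 0.00900). It was also the lowest gene of the list in siNELFA (-0.82, adjusted p = 1.0) and in the double knockdown (-1.10, adjusted p = 0.0862). TCEA1, which encodes the elongation factor TFIIS, was at -0.46 (adjusted p = 0.0538) without the block. With the replicate block TCEA1 was called at -0.45 (adjusted p = 0.0173), as was MLLT1 (adjusted p = 0.00172), in a fit that called 7.12% of genes. That fit also blocks the double knockdown libraries, whose numbers pair nothing. These calls therefore rest on a block that can hold for the other groups only. The highest values of the list were 0.41 for ELL, an elongation factor of the same complex as MLLT1, in siNELFA (adjusted p = 1.0) and 0.51 for CDK9, the kinase of P-TEFb, in the double knockdown (adjusted p = 0.469). SUPT4H1 and SUPT5H, the DSIF partners of NELF, were at 0.39 and 0.20 in siNELFA, with 95% intervals that include 0. With the NELFA pool present they were at 0.33 (95% interval 0.11 to 0.55, adjusted p = 0.127) and 0.16 (-0.04 to 0.36, adjusted p = 0.443), and neither was called.

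**Figure D4:**
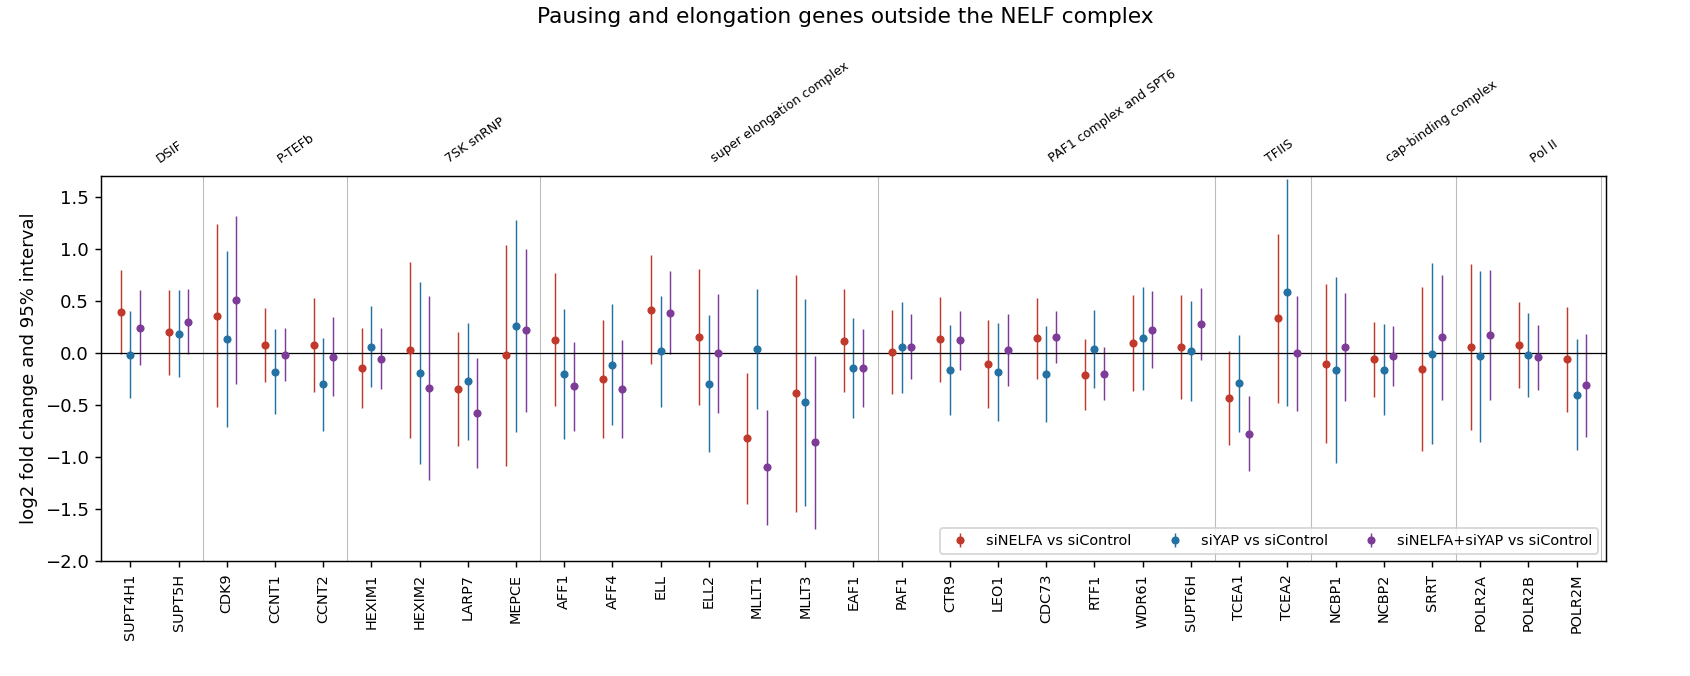
Log2 fold change (points) and 95% interval (lines) of 31 pausing and elongation genes outside NELF, grouped by complex, in each knockdown against siControl. The lowest points are those of MLLT1, at -0.82 in siNELFA and -1.10 with both pools. None of the 31 was called in these 3 comparisons without the replicate block, where 0.00564% to 0.428% of all genes were called.

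The genes whose pattern was most like that of NELFA over the 12 libraries, among 12970 genes averaging at least 50 counts, were ZNF496 (Pearson's r of log2 CPM 0.976), ARL10 (0.966), ALDH9A1 (0.964), MTMR4 (0.963) and NIN (0.963). These are descriptions over libraries that share the knockdown, so any gene that separates the 2 sets of 6 libraries gives a high r. ALDH9A1, which encodes an aldehyde dehydrogenase, had 997.5, 1265 and 1323 normalized counts in siControl and 1032, 1222 and 1361 in siYAP. It had 135.1, 185.2 and 152.8 in siNELFA and 134.1, 150.4 and 135.8 in the double knockdown. Its log2 fold change with the NELFA pool present, -3.01 (SE 0.13, adjusted p = 1.12e-07), was larger in size than that of NELFA, and ALDH9A1 was the gene called in siNELFA against siControl (-2.92, adjusted p = 0.0268). NIN, which encodes the centrosomal protein ninein, stood at -1.10 (adjusted p = 0.000123), and ZNF496, a zinc finger gene, at -0.68 (adjusted p = 0.00486). The sequences of the siRNA pools were not used here.

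Correlations between the subunits across libraries ran from -0.04 to 0.36. NELFA differed mainly by its own siRNA pool and NELFB mainly by siControl replicate 1, so low values do not show a lack of coordination. Pearson's r over the 12 libraries was -0.04 between NELFA and NELFB, 0.36 between NELFA and NELFCD, 0.06 between NELFA and NELFE, 0.34 between NELFB and NELFCD, 0.07 between NELFB and NELFE and 0.05 between NELFCD and NELFE, given as descriptions of libraries that share 4 treatments.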

How the data were processed

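MDA-MB-231 RNA was sequenced in 12 libraries, 3 per siRNA group, grouped by their titles. The authors aligned reads to GRCh38 with STAR and an Ensembl annotation, counted reads per gene with featureCounts, and deposited the raw counts; the deposited TPM values, from the authors' own abundance estimates, are scaled to the same total in every library. The FPKM values were not used, being the TPM before scaling. The counts were tested with edgeR 4.0.16 (TMM factors, quasi-likelihood test, Benjamini-Hochberg adjustment over all genes tested, called under 0.05) after filterByExpr (minimum count 10, minimum total 15). Pair comparisons used only their 6 libraries; the pool-present and interaction fits used all 12. Intervals are 95% intervals from the fit's t distribution. DESeq2 1.42.0, limma 3.58.1 on log2(TPM + 1) and log2(TPM + 0.1), other factors, no filter, a replicate block and leaving out libraries were alternatives. Deviations of same-numbered siControl, siNELFA and siYAP libraries from their group means correlated at 0.642 to 0.886 over 12971 genes, in every pair. Those of the double knockdown correlated at -0.0523 to 0.0256 with the others. Deviations within a group balance each other and the libraries numbered 1 stood apart, so the values of the other numbers are in part set by theirs. Libraries of different number were not correlated, so whether the other numbers are paired was not tested. TPM lines of 94 repeated gene identifiers were summed.

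Lengths and spans came from GENCODE version 44, a later annotation than the counting used. Levels per length use these lengths. The members and the pausing list were chosen with earlier results of these data known. A gene of the planned pausing list is not reported here and was left out of its counts and medians. Named genes were the members, YAP1, list genes called in a comparison or otherwise at the extremes in siNELFA and the double knockdown, genes overlapping or within 1 kb of a member, and the closest correlates (5 for NELFA, 3 for each other member). On simulated counts with 200 genes changed by 2 on the log2 scale, the test recovered 56.5% of them for siNELFA against siControl (17727 genes; 6.61% of its calls were false) and 86.5% for the pool present against absent (18525 genes; 5.98%). The simulated libraries were drawn independently, without a shift shared by the libraries numbered 1, so these rates may not hold for the deposited counts. Counts per library limit precision: NELFA rests on 94 to 539 reads.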

Additional observations from a re-analysis of the deposited data

How the results depend on the processing

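Over 29 results for the subunits and 447 alternative values, 379 kept their direction and their side of the threshold; of 108 alternative counts of genes called, 45 lay within 1.5 times the main count. Of 324 alternative values for NELFB, NELFCD and NELFE, 1 passed the test (NELFB in the double knockdown without siControl replicate 1, -0.26). A turn in sign was seen for 46 values, the passing one among them, and the others of these did not pass. NELFA kept its sign wherever the NELFA pool was compared with its absence, and with the pool present against absent it was called under all 19 alternatives. Its share of summed counts per kb kept its direction under all 15, from -8.52 to -4.02 percentage points. The threshold for these 15 was an unadjusted exact permutation p under 0.05, which all met, and not the adjusted p. Why a value moved was not tested.

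With the replicate block, genes called went from 1 to 924 in siNELFA (NELFA -1.64, called), from 1 to 3 in siYAP (NELFA -0.0248), from 75 to 2 in the double knockdown (NELFA -1.95 in the block fit, no longer called), from 6 to 1 against siYAP, and from 401 to 1319 for the pool present against absent; it changed no call of another subunit. In block fits that include the double knockdown, the replicate numbers pair nothing for its libraries. Without a filter, 3 genes were called in siNELFA, 381 in the double knockdown, 222 against siYAP (NELFA -1.91, called) and 26 against siNELFA. DESeq2 called 17 genes in siNELFA (NELFA -1.63, adjusted p = 9.37e-07), 935 in the double knockdown, 494 against siYAP (NELFA -1.94, called), 48 against siNELFA and 997 with the pool present. One fit of all 12 libraries called 8 in siNELFA (NELFA -1.63, adjusted p = 0.0151) and NELFA against siYAP (-1.93). NELFA in siYAP was -0.0046 with RLE factors, -0.0043 without a filter and -0.0053 in DESeq2.

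With limma on log2(TPM + 1), 4 genes were called in siNELFA, 3 in siYAP, 20 in the double knockdown, 7 against siNELFA and 212 with the pool present. NELFA was 0.72 in siYAP, -2.89 against siYAP, -1.52 for the interaction and -2.13 with the pool present. NELFB was -0.0485 in siNELFA and 0.0723 against siNELFA; NELFE was -0.23 in siNELFA, -0.0561 in siYAP, 0.0595 against siNELFA, 0.12 for the interaction and -0.18 with the pool present; NELFCD was -0.0520 in siYAP. On log2(TPM + 0.1) the counts were 5, 5, 27, 16 and 204, with 3 against siYAP and 1 for the interaction; NELFA was 0.75, -3.24, -1.73 and -2.37, NELFB -0.0461 and 0.0746, NELFE -0.24, -0.0567, 0.0606, 0.12 and -0.18, and NELFCD -0.0529, in the same order.

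Without replicate 1 of every group, chosen after seeing the data, 18 genes were called in siNELFA (NELFA -1.77, called), 3259 in the double knockdown, 1349 against siYAP (NELFA -1.86, called), 28 against siNELFA and 2995 with the pool present. NELFB was -0.13, -0.0214 and -0.20 in siNELFA, siYAP and the double knockdown, NELFA -0.22 in siYAP, NELFE 0.0102 in the double knockdown and 0.00977 against siYAP, and NELFCD -0.0189 for the interaction.

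Leaving out 1 library at a time gave 0 to 1 genes called in siNELFA, 0 to 1 in siYAP, 0 to 4531 in the double knockdown (0 without its replicate 1, 4531 without siControl replicate 1), 0 to 2937 against siYAP (0 without double knockdown replicate 1, 2937 without siYAP replicate 1), 1 to 228 against siNELFA (228 without siNELFA replicate 1) and 74 to 606 with the pool present (74 without double knockdown replicate 2, 606 without siYAP replicate 1). NELFA ran from -2.04 to -1.86 in the double knockdown, where dropping siControl replicate 2, or whichever library of the double knockdown itself, ended its call, from -2.06 to -1.75 against siYAP, where it was called without siYAP replicate 1 or 3, and from -0.18 to 0.12 in siYAP. NELFB ran from -0.24 to 0.29 in siNELFA, -0.0904 to 0.43 in siYAP, -0.26 to 0.26 in the double knockdown, -0.12 to 0.0491 against siNELFA, -0.45 to 0.0834 for the interaction and -0.20 to 0.0320 with the pool present. NELFE ran from -0.11 to 0.14, -0.0317 to 0.0685 and -0.0318 to 0.0030 in these 3 groups against siControl, -0.0933 to 0.0078 against siYAP, -0.16 to 0.10 against siNELFA, -0.16 to 0.0819 for the interaction and -0.0657 to 0.0502 with the pool present. NELFCD ran from -0.0472 to 0.0328 in the double knockdown and -0.0167 to 0.0703 for the interaction.

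Read depth for NELFA, 94 to 539 reads per library, limits the small difference between siNELFA and the double knockdown.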

Other observations

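The closest genes of NELFB had a higher r than those of NELFCD and NELFE. Like NELFB, these genes were at their lowest in siControl replicate 1. Over the 12 libraries the genes most like NELFB were TBXA2R, the thromboxane receptor gene (Pearson's r 0.986), ENSG00000259522 (0.979) and FAM65A (0.976), and none of the 3 was called in any comparison. TBXA2R had 2 raw counts in siControl replicate 1 and 91 and 92 in siControl replicates 2 and 3, and in each of the other groups its replicate 1 was also the lowest. In the same 3 libraries FAM65A had 981.7, 2485 and 2368 normalized counts and ENSG00000259522 had 290.9, 782.6 and 878.5. How far these r values rest on siControl replicate 1 was not tested. The genes most like NELFCD were ANKEF1 (0.907), INMT-FAM188B (0.837) and AC005562.1 (0.837), and those most like NELFE were LINC00339 (0.823), SLC24A1 (0.771) and CHCHD6 (0.771). These are descriptions over 12 libraries that share 4 treatments.

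Within the double knockdown, NELFA in replicate 1 lay 0.21 above its group mean on the log2 scale, higher than 95.7% of genes in that library. NELFA had 99, 94 and 118 raw counts in the libraries of this group, and the rank takes no account of read depth. In siNELFA replicate 3 and siYAP replicate 3 it lay 0.27 and 0.26 below.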
